A study of Homo sapiens with 2 samples.

Results

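The laminin chains and fibronectin examined here are 9 genes, LAMA1, LAMA3, LAMA4, LAMA5, LAMB1, LAMB2, LAMB3, LAMC1 and FN1, taken by name from the 60649 rows of a read count table. Each name matched 1 row. RNA immunoprecipitation (RIP) recovers the RNA held by, or lying near, the protein that an antibody pulls down. In the MT1-MMP RIP the antibody bound MT1-MMP, a matrix metalloproteinase anchored in the cell membrane whose gene is MMP14. In the mock RIP rabbit IgG took its place. Both came from wild-type MDA-231, a human breast cancer cell line, kept for 16 h without serum in the presence of P4G11, an antibody against beta-1 integrin; the protocol also names E7-s, with no role stated. The title of the first library writes MMP1 in place of MT1-MMP, and the mock is tagged MDA-232 as its cell line. Here the design text, which names MT1-MMP and MDA-231, was followed. There was 1 library of each kind and no untreated sample, so every difference below holds between 2 libraries, has no replicate check and carries no p-value.

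Laminins are large secreted proteins made of 1 alpha, 1 beta and 1 gamma chain, each encoded by its own gene, and they form the sheet of basement membranes on which epithelial cells sit. Fibronectin is a secreted glycoprotein that cells assemble into fibrils. Beta-1 integrin, paired with different alpha subunits, is a main receptor for both, and metalloproteinases including MT1-MMP can cleave fibronectin and some laminin chains. What was counted here is the RNA of these genes, not the proteins.

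The libraries summed to 31636000 counts (MT1-MMP) and 13003668 counts (IgG), of which a block of 28 ribosomal DNA rows on chromosome 21 took 10.2% and 92.6%. The scale between the libraries therefore decides which side a gene falls on. Ratios of MT1-MMP RIP to IgG RIP were scaled by TMM (trimmed mean of M-values), which sets the typical row near 1, so that 45.9 MT1-MMP counts to 1 IgG count make a scaled log2 ratio of 0. A gene was called higher in a library where its whole 95% counting interval lay beyond 2-fold. On plain CPM (counts of a gene per 1e+06 counts of its library) each log2 ratio lies 4.24 higher. All 6 markers of MDA-231 that were looked up, VIM and CD44 among them, had counts in both libraries (50 to 25209 and 62 to 721). The fibroblast markers COL1A2 and COL3A1 were at 0 in both, COL1A1 had 24 and 12 counts, and DCN and LUM had 1 count each in the MT1-MMP library. Of the other marker lists, 3 of 3 leukocyte, 3 of 3 endothelial and 6 of 6 luminal breast markers were seen in the MT1-MMP library, and 1, 2 and 4 in the mock. Their sums were 76, 3488 and 904 counts against 26, 26 and 31, with PECAM1 alone at 3414 and 24. The part of such RNA in the results was not tested, and fewer cells holding an RNA and less of it per cell cannot be told apart in pooled lysates.

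On the TMM scale some of the 9 genes were relatively more abundant in the mock RIP, and none was called on the MT1-MMP side. FN1, LAMA5, LAMB3 and LAMB2 were called higher in the IgG library, LAMB2 by far the most. LAMC1, LAMB1, LAMA3, LAMA1 and LAMA4 were called in neither direction. The mock was thus the higher side for 4 of 9, beside 16.2% of the 14328 tested protein-coding genes, and the MT1-MMP RIP for 0 of 9, beside 7.24%. For 3 of the 9, LAMA1, LAMA4 and LAMB2, no IgG count, not even 0, could have given a call on the MT1-MMP side at their MT1-MMP counts. The median log2 ratio of the 9 was -0.18, and that of all tested protein-coding genes was 0.05. The split does not depend on the scale in its order, since the ratio of 2 genes within a library is free of it.

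FN1 (NCBI Gene 2335, GRCh38.p14 chromosome 2, 215360865 to 215436068) encodes fibronectin. It had 2905 MT1-MMP counts and 267 IgG counts, the most IgG counts of the 9. At a scaled log2 ratio of 0, a row with as many MT1-MMP counts would have had 63.3 IgG counts. The scaled log2 ratio was -2.08 (95% interval -2.26 to -1.89), which is 4.23-fold higher in the IgG library (3.71 to 4.78); by totals without the ribosomal DNA rows the log2 ratio was -1.44, or 2.72-fold. By CPM the levels were 91.8 and 20.5, a log2 ratio of 2.16 in the other direction. The gene ATIC overlaps 7728 bases of FN1 and held 557 and 21 counts, so even if all of its reads were shared they would make 19.2% (MT1-MMP) and 7.87% (mock) of the counts of FN1.

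Among the alpha chains, which carry the main integrin-binding part of a laminin, LAMA5 stood apart from LAMA3. LAMA5 (chromosome 20, 62309065 to 62367312), the alpha chain of the laminins most widespread in adult basement membranes, had 1964 MT1-MMP counts and 204 IgG counts. Its log2 ratio was -2.26 (-2.46 to -2.04), or -1.62 by totals without the ribosomal DNA rows. LAMA3 (chromosome 18, 23689453 to 23955066), the alpha chain of the laminin that anchors skin and mammary epithelium, had nearly as many MT1-MMP counts, 1753, but 31 IgG counts. Its log2 ratio was 0.28 (-0.21 to 0.86). The MT1-MMP to IgG ratio of LAMA3 was 5.87 times that of LAMA5 (exact conditional interval 3.99 to 8.92), whatever the scale.

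LAMA1 and LAMA4 were scarce. LAMA1 (chromosome 18, 6941742 to 7117797), the alpha chain typical of the early embryo, had 183 and 2 counts and a log2 ratio of 0.68 (-0.88 to 4.05). LAMA4 (chromosome 6, 112107931 to 112254985), a chain of vessel and muscle laminins, had 53 and 0 counts. Its fitted log2 ratio of 1.22 depends on the 0.5 counts added to each library, its interval starts at -1.73 and has no upper end, and no fold is given. LAMA4-AS1 overlaps 18390 bases of LAMA4 and held 65 and 0 counts, so the reads of LAMA4 cannot be told from its own. The intervals of both genes reach from below the typical row to more than 2-fold above it.

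The beta chains spread over the widest range. LAMB1 (chromosome 7, 107923799 to 108003161), a widely expressed beta chain, had 1506 and 29 counts and a log2 ratio of 0.15 (-0.35 to 0.76). LAMB3 (chromosome 1, 209614870 to 209652425), the partner of the LAMA3 chain, had 1351 and 126 counts and a log2 ratio of -2.10 (-2.36 to -1.82), or -1.47 by the same totals without the ribosomal DNA rows. LAMB2 (chromosome 3, 49121114 to 49133050), the beta chain of synaptic and kidney filter laminins, had 168 and 87 counts. At a scaled log2 ratio of 0, a row with its MT1-MMP counts would have had 3.66 IgG counts. The log2 ratio of LAMB2 was -4.58 (-4.95 to -4.18), or 23.8-fold higher in the IgG library (18.1 to 31.0). By totals without the ribosomal DNA rows it was -3.94, or 15.3-fold. LAMB2 was the single member with a higher CPM in the mock, 6.69 against 5.31, but the interval of its CPM log2 ratio, -0.34 (-0.72 to 0.06), includes 0. The ratio of LAMB1 was 26.8 times that of LAMB2 (16.9 to 43.6).

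LAMB2P1, a pseudogene row of LAMB2 on chromosome 3 (49152859 to 49154401), held 58 and 1 counts, so its MT1-MMP reads amount to a fair part of those of LAMB2. How reads that fit both were assigned is not stated, and the LAMB2 count is uncertain to that extent.

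LAMC1 (chromosome 1, 183023420 to 183145592) encodes the gamma chain found in most laminins. It had 5496 MT1-MMP counts, the most of the 9, and 135 IgG counts, close to the 119.7 of a row at a scaled log2 ratio of 0. Its log2 ratio was -0.18 (-0.42 to 0.08), so on this scale a departure of 2-fold either way lies outside its counting interval. With the scale fitted over rows of at least 100 summed counts the log2 ratio was -0.60. On the main scale, 44 or fewer IgG counts would have made LAMC1 called higher in the MT1-MMP library.

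Ratios between pairs of members need no scaling, and they give the order of the genes but not which library is higher. Over the 28 pairs of the 8 members with IgG counts, the ratio of ratios had a 95% interval that left out 1 for 19 pairs. After widening the intervals for the number of pairs it was again 19. The share among pairs of other tested genes was not computed, so 19 of 28 is not read as a trait of this family. The remaining 9 pairs lay inside 2 sets: LAMA1, LAMA3, LAMB1 and LAMC1 among themselves, and LAMA5, LAMB3 and FN1 among themselves. Within the second set the ratios were close, 0.88 for LAMA5 over FN1 (0.73 to 1.08), 0.90 for LAMA5 over LAMB3 (0.71 to 1.14) and 0.99 for LAMB3 over FN1 (0.79 to 1.24). LAMB2 differed from all 7 others. LAMC1 exceeded FN1 by 3.74 times (3.01 to 4.66).

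As shares of the counts of the 9 genes, which summed to 15379 (MT1-MMP) and 881 (mock), the makeup of the family differed between the libraries. LAMC1 made up 35.7% of the MT1-MMP counts (exact binomial interval 35.0 to 36.5) and 15.3% of those in the mock (13.01 to 17.9). FN1 made up 18.9% (18.3 to 19.5) and 30.3% (27.3 to 33.5). LAMB2 went from 1.09% (0.93 to 1.27) to 9.88% (7.99 to 12.04), and LAMA3 from 11.4% (10.9 to 11.9) to 3.52% (2.40 to 4.96). LAMA4, at 0 of 881, may hold up to 0.418% of the IgG counts. FN1, LAMA5, LAMB3 and LAMB2 together held 41.5% and 77.6%; they are grouped by their calls, so this direction is fixed by the grouping.

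Gene span, from start to end with introns, divided the members in the same way. The 4 called higher in the IgG library had the shortest spans, 11.9 kb for LAMB2 to 75.2 kb for FN1, and the other 5 spanned 79.4 kb for LAMB1 to 265.6 kb for LAMA3. Across all tested protein-coding genes the ratio also moves with span, so those genes were cut into 10 equal classes by span and each member was set beside its own class. For 6 of the 9, FN1, LAMA5, LAMB2, LAMB3, LAMC1 and LAMA3, the whole counting interval lay below the median log2 ratio of their class. For the other 3, LAMB1, LAMA1 and LAMA4, the interval held that median. The share of all tested protein-coding genes that meet this rule is not given here. Genes with many counts have narrow intervals and meet it at smaller differences, so the 6 are not read as a trait of the family. FN1 differed from the median of its class by -2.79, and 1.40% of the 1433 genes of its class had a lower ratio than FN1. LAMA5 differed by -2.64 (1.89% of its class lower), LAMB2 by -2.91, the most of the 6 (3.42%), and LAMB3 by -2.15 (3.14%). The differences of LAMC1 and LAMA3 were smaller, -1.17 and -1.19 (11.8% and 11.5%). The class medians were 0.71 for FN1, 0.39 for LAMA5, 0.05 for LAMB3 and -1.67 for LAMB2. FN1 and LAMB1, next to each other in span, fell in the same class but had log2 ratios of -2.08 and 0.15.

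Per kb of span the levels could be ordered within each library. In the MT1-MMP library LAMC1 was highest at 45.0 counts per kb (exact Poisson interval 43.8 to 46.2). FN1 (38.6), LAMB3 (36.0) and LAMA5 (33.7) followed, and neighbours among these 3 had overlapping intervals. Below them came LAMB1 at 19.0, LAMB2 at 14.1, LAMA3 at 6.60, LAMA1 at 1.04 and LAMA4 at 0.36 counts per kb, each apart from its neighbours.

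In the IgG library the order began with LAMB2 at 7.29 counts per kb (5.84 to 8.99). FN1, LAMA5 and LAMB3 lay together at 3.55, 3.50 and 3.36, and LAMC1 came after them at 1.11 (0.93 to 1.31). LAMB1 (0.37), LAMA3 (0.12) and LAMA1 (0.011) followed, and LAMA4 had no count. Against the median gene of like span, FN1 was at 2.58 times its MT1-MMP counts per kb and at 17.7 times its IgG counts per kb. For LAMA5 these were 2.32 and 15.2 times, for LAMB3 2.31 and 10.6 times, and for LAMB2 1.11 and 7.86 times. LAMC1 was also above its class in both libraries, 3.29 and 7.79 times, as were LAMB1 (1.27 and 1.82 times) and LAMA3 (1.02 and 2.37 times). LAMA1 and LAMA4 were below theirs in both.

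Rows nested in the members give a view of places inside them. LAMA5-AS1, which lies wholly inside LAMA5 (chromosome 20, 62353010 to 62356480), held 90 and 9 counts, 10.0 to 1, beside the 9.63 to 1 of LAMA5 itself. With 9 IgG counts its log2 ratio of -2.27 has a wide interval (-3.19 to -1.02). LAMC1-AS1, inside LAMC1, held 89 and 6 counts, a log2 ratio of -1.74 (-2.81 to -0.15) against -0.18 for LAMC1. The other rows nested in members were the pseudogenes RPL23AP77 in LAMA3 (5 and 0 counts) and RNU6-1226P in LAMA4 (0 and 0). Whether counting used strand is not stated, so sense and antisense reads cannot be told apart.

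The shortest nested rows are the microRNA hairpins MIR4758 in LAMA5 and MIR4260 in LAMB3, shown because they are short stretches of known sequence, inside members called higher in the IgG library, that have rows of their own. They lie at chr20:62332487-62332557 and chr1:209623444-209623510, both on the minus strand of GRCh38.p14, and the sequences, 5′ to 3′ from RefSeq, have the mature microRNAs in capitals.
MIR4758: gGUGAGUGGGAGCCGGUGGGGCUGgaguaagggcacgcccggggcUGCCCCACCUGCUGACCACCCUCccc
MIR4260: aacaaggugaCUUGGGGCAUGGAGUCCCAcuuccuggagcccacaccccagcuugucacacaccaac
MIR4758 held 2 and 2 counts and MIR4260 held 4 and 2, too few for a ratio. Reads of the host transcript over these stretches cannot be told from the microRNA precursors.

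Among laminin chains outside the 9 genes, 3 were examined, and with them the count changes. LAMA2, the alpha chain of muscle basement membrane, had 2912 and 14 counts and a log2 ratio of 2.13 (1.43 to 3.05). LAMC3, a gamma chain of restricted expression, had 2146 and 11 counts and a log2 ratio of 2.02 (1.25 to 3.09). Both were called higher in the MT1-MMP library, so over these 11 chains 2 were called on the MT1-MMP side and 3 on the mock side. The shares of all tested protein-coding genes were 7.24% and 16.2%. LAMA2 spans 633.4 kb, and its interval held the median of its span class, 1.47. In that class 559 of 1433 genes were called on the MT1-MMP side. The interval of LAMC3 (85.3 kb) lay above its class median, 0.71, and 115 of 1433 genes of its class were so called.

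LAMA5, LAMB1 and LAMC1, whose products join in 1 trimer, lay at -2.26, 0.15 and -0.18. LAMB4 had 34 and 2 counts, with a wide interval (-3.40 to 1.67).

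For receptors, partners and proteases the shares of all tested protein-coding genes stand as before, 16.2% on the mock side and 7.24% on the MT1-MMP side, with 76.5% in neither. Of 10 laminin receptors 9 were tested; 3 were called on the mock side and 0 on the MT1-MMP side, with a median log2 ratio of -0.03. The 3 with the most counts, ITGB1 (8940 and 269, log2 ratio -0.47), ITGA1 (7979 and 132, 0.39) and ITGA6 (7326 and 162, -0.03), are integrin subunits and were called in neither direction. Those called on the mock side were the integrin subunits ITGA3 (log2 ratio -2.18) and ITGB4 (-3.52), and RPSA (-4.59). Of 11 fibronectin receptors 1, the integrin subunit ITGA5 (-2.85), was called on the mock side and 0 on the other (median -0.03). Among those of most counts besides ITGB1, ITGB5 lay at 1.10 and SDC4, a syndecan, at -0.73. For 11 basement membrane partners these numbers were again 1 and 0 (median 0.50). The collagen IV chains COL4A2 and COL4A5 lay at 0.50 and 1.05, and the proteoglycan perlecan, HSPG2, at -0.28.

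Of 10 proteases that act on laminin or fibronectin 6 were tested; 3 were called on the mock side and 0 on the MT1-MMP side, with a median of -2.52. The plasminogen activator PLAT had 2583 and 109 counts (-0.96), MMP1 583 and 361 (-4.83) and BMP1 476 and 18 (-0.83). MMP14, the mRNA of the RIP target, had 367 and 134 counts and a log2 ratio of -4.07 (-4.36 to -3.77), beside -4.58 (-4.95 to -4.18) for LAMB2. The median span of the 6 was 22.0 kb, against 79.4 kb for the 9 laminin and fibronectin genes.

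By CPM, with no allowance for the ribosomal DNA block, 8 of the 9 were called on the MT1-MMP side, as were 86.1% of tested protein-coding genes, and 0 on the mock side, as were 0.698%. Summed, the 9 genes had a CPM of 486.1 (MT1-MMP) and 67.8 (mock), but of 541.5 and 914.9 when only counts outside the block enter the total. The direction of the summed counts therefore turns with the scale. On totals without the block the median log2 ratio of the 9 was 0.46, so there the sum and the median point to different sides.

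The protein-coding genes most like FN1 in log2 CPM of the 2 libraries were EIF3A, a translation initiation factor subunit (2729 and 278 counts, distance 0.11), TPM4, a tropomyosin (3214 and 246, 0.19), and PGK1, a glycolytic enzyme (2860 and 230, 0.22). Those most like LAMC1 were HEG1 (5409 and 131 counts, 0.05), SCAI (5666 and 132, 0.06) and KTN1 (5215 and 143, 0.11). This likeness rests on 2 values per gene.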

How the data were processed

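The authors deposited whole-number read counts per gene row, 1 column for each of 2 libraries, with no normalization. The submitters' processing notes name cutadapt, HISAT2, SAMtools and build hg38. Tool versions, the read counter, its annotation and its strand setting were not stated in the sources used. Introns, nested genes and overlapping genes may share counts. Rows were matched by symbol to RefSeq (GRCh38.p14), and all 9 members matched. 959 rows that repeated an earlier name and its counts were left out of the fits but not of the totals. Ratios over rows with at least 20 summed counts (25933) were scaled by TMM in edgeR 4.0.16, with 0.5 counts added for point values. Intervals are exact Clopper-Pearson, Poisson or conditional odds ratio intervals at 95% (scipy 1.17.1). Only the Clopper-Pearson interval of the count ratio was tried on simulated counts, drawn at the fitted scale with counting error alone. All of these intervals cover counting error only, since each group has no replicate. Reads with no molecular identifier may repeat 1 molecule, and where they do, the intervals are too narrow even for counting error. With 1 library per group the planned statistics hold no test. The 10 span classes were cut over tested protein-coding genes. Members and lists were chosen with earlier results of these data known. The named genes are the 9 members, the rows overlapping them, 3 other laminin chains (a further item of the lists is not reported here), the 3 genes of most counts of each pathway list with MMP14, MMP1 and ITGB1, and the 3 genes nearest FN1 and LAMC1. LAMB2P1 was added after its values were seen. ITGA3, ITGB4, RPSA and ITGA5 were named because of their calls. Levels per coding length were planned but not computed, as no protein sequence was used here. The alternatives were other scales, minimum counts, added counts, call thresholds and denominators.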

Additional observations from a re-analysis of the deposited data

How the results depend on the processing

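By total counts 8 members were called on the MT1-MMP side and 0 on the mock side, the median rose to 4.06, and the log2 ratios of FN1, LAMB3 and LAMA5 turned to 2.16, 2.13 and 1.98. Among genes called in neither direction, LAMC1 also turned (4.06 by total counts, 0.46 by totals without the block and 0.19 at a minimum of 1), LAMA1 and LAMA4 turned with 5 counts added (-0.77 and -1.98; LAMA4 also with 2, -0.74), LAMB1 with 5 added (-0.05), and LAMB1 and LAMA3 at a minimum of 100 (-0.26 and -0.14). Total counts add 4.24 to each. With a whole interval beyond 4-fold required, 2 members were higher in the IgG library, LAMB2 and LAMA5. The calls, 4 and 0, were the same with DESeq2 1.42.0 size factors, the upper quartile, totals without the ribosomal DNA rows, TMM over protein-coding rows, a minimum of 1 or 100 counts and a threshold of 1.5-fold. For these settings and the 4-fold rule the share of all tested protein-coding genes called is not given. The member counts there are therefore not read as a trait of the family. Over these scalings and minimums the median ran from -1.55 (minimum of 100, which drops LAMA4) to 0.46 (totals without the block), and it was -0.74 and -1.98 with 2 and 5 counts added. With FN1 left out of the denominator, the share of LAMC1 was 44.1% (MT1-MMP) and 22.0% (mock). Depth limits LAMA1, LAMA4 and LAMB2, since a call as higher in the MT1-MMP library at 0 IgG counts needs 341 MT1-MMP counts. No paired analysis was possible because each group has 1 library.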
